A study of Mus musculus with 6 samples.

Results

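Expression of 10 genes of glutathione metabolism and of the NRF2 antioxidant response was followed in whole pancreas of Rkip-1 KO and WT mice. The genes were chosen by name: the regulators Nfe2l2 and Keap1, the glutathione genes Gclc, Gclm, Gss and Gsr, and the NRF2 targets Nqo1, Hmox1, Txnrd1 and Srxn1. Every probe set annotated to exactly 1 of these genes was read, which gave 21 probe sets, and all 10 of the genes had at least 1. They are 10 of the 18193 genes with such a probe set on the array. The KO group held 3 mice lacking Rkip-1 (Raf kinase inhibitor, the product of Pebp1), and the WT group held 3 mice drawn from the colony that also gave the knockouts. Both groups were 8 weeks old and kept on a C57BL/6 background, no treatment other than dissection is listed, and each of the 6 samples was measured on an array of its own. The labels call the samples biological replicates and name neither the knockout allele, the sex nor a batch. Values are log2 intensities after RMA, a procedure that subtracts background, equalises the distributions of the arrays and summarises the probes of a probe set.

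NRF2, the protein of Nfe2l2, is a transcription factor that Keap1 normally hands to a Cul3 ubiquitin ligase for degradation. Oxidants and electrophiles modify Keap1, NRF2 then accumulates, pairs with a small Maf protein and binds antioxidant response elements beside genes of glutathione synthesis, thiol reduction and detoxification. Keap1 has been described as a binding partner of Rkip-1, which gives the question asked of these genes. In the pancreas, glutathione takes part in the redox chemistry of secretory protein folding, and its depletion is known from acute pancreatitis.

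The core of the antioxidant response element, TGACNNNGC, is shown where it stands in the members' promoters, because this is the sequence through which NRF2 would act on them. The RefSeq promoter table (GRCm38.p6, 250 bases before to 50 after each start) held 9 windows for 7 of the 10 genes, with no entry used for Gclc, Gsr or Hmox1. Searched on both strands, the core was present in 4 of these 9 windows, against 12.4% of all 32851 windows in the table. The sequences below run 5′ to 3′ on the strand of the gene, with the core in capitals. On the strand shown it reads TGACNNNGC in Nfe2l2 and GCNNNGTCA in the other genes, in which TGACNNNGC itself lies on the opposite strand.
Nfe2l2, chr2:75704879-75704913, minus strand: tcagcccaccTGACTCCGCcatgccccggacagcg
Gclm, chr3:122245407-122245447, plus strand: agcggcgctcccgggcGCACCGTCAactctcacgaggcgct
Txnrd1, chr10:82859098-82859138, plus strand: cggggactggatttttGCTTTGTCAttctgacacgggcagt
Srxn1, chr2:152105536-152105573, plus strand: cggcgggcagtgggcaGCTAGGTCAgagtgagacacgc
The core began 240 bases upstream of the annotated start of Nfe2l2 and 134 bases upstream of the start used for the Gclm window. The Gclm gene record itself begins at chr3:122245487, between the core and that start. In Txnrd1 it lay 92 bases upstream of 1 of 3 annotated starts, and in Srxn1 it began at base 29 of the transcribed sequence. These letters were not found in the windows of Gss, Nqo1 and Keap1 or in the other Txnrd1 windows. A match in a window of this size is a description of the sequence and does not show binding.

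The targeted gene followed the labels. The brightest Pebp1 probe set had values of 5.89, 6.50 and 5.71 in KO and of 9.81, 10.01 and 9.81 in WT, a difference of -3.84 (log2) with a limma adjusted p of 5.05e-05. Array medians lay between 2.97 and 3.02, the upper quartile of all values was 4.54, and pairwise correlations over all probe sets ran between 0.989 and 0.993. The acinar enzyme Cpa1 measured 14.35 to 14.37 in KO and 14.38 to 14.39 in WT, against a highest value of 14.57 in the table; acinar cells make up most of the pancreas. In such bulk tissue, fewer cells of a type and less RNA per cell cannot be told apart.

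None of the 10 genes passed the test between genotypes. By limma, 0 of the 10 genes had an adjusted p under 0.05 at their brightest probe set, against 0.132% of all genes, and 0 of the 21 probe sets did, against 0.0977% of all probe sets. At an unadjusted p under 0.05 the counts were 0 of 10 genes, against 10.1% of all genes, and 1 of 21 probe sets, against 8.68% of all probe sets. Over the alternatives run, 0 to 2 of the 10 genes had such a p. At their brightest probe set 5 genes measured higher and 5 lower in KO, with a median difference of 0.02 (log2) beside a median of 0.00 over all genes, and single differences from -0.21 for Keap1 to 0.35 for Gclc. The lowest adjusted p was 0.612 over the brightest and 0.431 over all member probe sets. The 95% intervals of the brightest probe sets reached from -0.51 for Nfe2l2 to 0.83 for Gclc. A p that misses the threshold does not show that levels were equal, and these intervals give the range of differences the arrays allow.

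**Figure D1:**
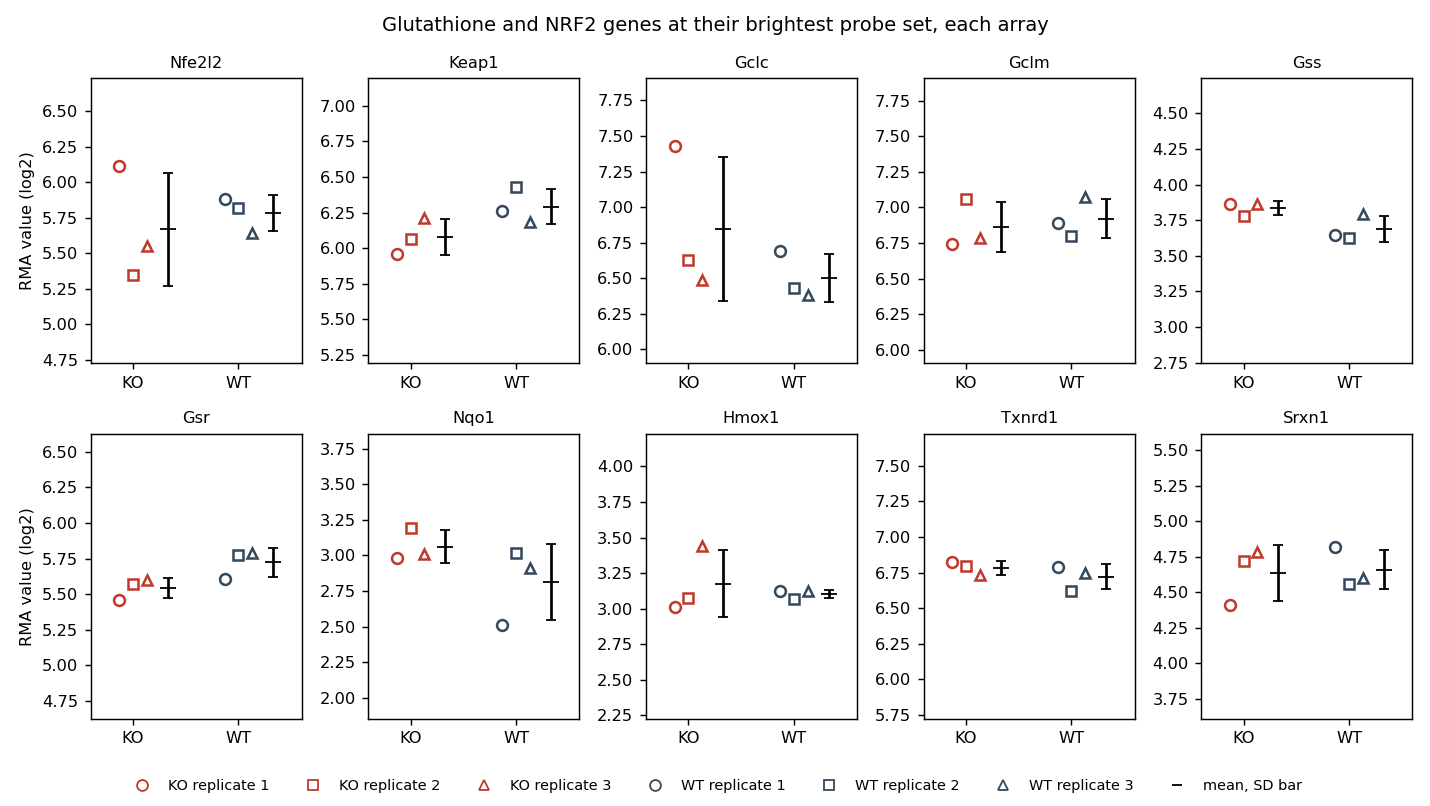
Log2 RMA values of the 10 genes at their brightest probe set, with KO left of WT in each panel; open symbols are single arrays and black bars are means with the SD of 3 arrays. Each vertical axis spans the same number of log2 units but starts at its own level. Gclc and Nfe2l2 show KO replicate 1 above the other KO arrays, and the groups are apart by a small margin in Gsr alone.

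Nfe2l2, which encodes NRF2, measured 6.11, 5.34 and 5.55 in KO and 5.88, 5.82 and 5.64 in WT. The WT values all lay inside the KO range, so the groups overlapped fully. The difference was -0.11 with an interval of -0.51 to 0.28, a KO level between 0.703 and 1.21 times that of WT (adjusted p = 0.901 by limma). A second Nfe2l2 probe set lay below the array medians in all arrays, where RMA values carry little signal.

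Keap1, the substrate adaptor that holds NRF2 levels down, had the lowest p of the 10 genes at the brightest probe set, and both of its probe sets measured lower in KO. The brightest gave 5.96, 6.06 and 6.21 in KO and 6.26, 6.43 and 6.19 in WT. KO replicate 3 lay just above WT replicate 3, and apart from that pair every KO value was below every WT value. The difference was -0.21 with an interval of -0.45 to 0.02 and an unadjusted p of 0.068 (adjusted p = 0.612 by limma). Its second probe set, below the upper quartile of the arrays, differed by -0.25 with an interval of -0.54 to 0.03 and likewise overlapped by 1 pair of arrays. Without KO replicate 2 it differed by -0.11.

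Glutathione is made in a pair of steps, the first by glutamate-cysteine ligase with its catalytic subunit Gclc and its modifier subunit Gclm, the second by glutathione synthetase, Gss. Gclc measured 7.43, 6.63 and 6.49 in KO and 6.69, 6.43 and 6.38 in WT. One KO array stood well above the rest, while KO replicates 2 and 3 lay within the WT range. The mean was 6.85 ± 0.51 in KO and 6.50 ± 0.17 in WT (SD, n = 3 each), a difference of 0.35 with an interval of -0.14 to 0.83 (adjusted p = 0.706 by limma). The second Gclc probe set showed the same array on top, with 6.38, 5.24 and 4.88 in KO against 5.57, 5.33 and 5.26 in WT. There, KO replicates 2 and 3 were both below all WT arrays, and the difference was 0.12 with an interval of -0.58 to 0.81. The name of the brightest Gclc probe set marks possible binding of other transcripts, and that of the second does not.

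Gclm measured 6.74, 7.06 and 6.79 in KO and 6.89, 6.80 and 7.07 in WT at its brightest probe set. The values interleaved, and the difference of -0.06 had an interval of -0.32 to 0.20. Its second probe set differed by 0.12 in the other direction, with 5.65 in KO replicate 2 above every other array. Gss, at a level below the upper quartile of the arrays, measured 3.87, 3.78 and 3.87 in KO and 3.65, 3.63 and 3.79 in WT. WT replicate 3 overlapped the KO values by a small margin, and the difference was 0.15 with an interval of -0.05 to 0.35. A fold change at such a dim level can be too small.

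Gsr, glutathione reductase, which returns oxidised glutathione to its reduced form with NADPH, was the gene whose groups did not overlap. Its brightest probe set measured 5.46, 5.57 and 5.60 in KO and 5.61, 5.78 and 5.79 in WT, and its second 5.10, 5.17 and 4.77 in KO and 5.60, 5.30 and 5.31 in WT. At both probe sets all KO values were below all WT values, at the brightest by a gap far smaller than the spread within either group. The differences were -0.18 (interval -0.39 to 0.03, adjusted p = 0.633 by limma) and -0.39 (interval -0.68 to -0.10, unadjusted p = 0.0142, adjusted p = 0.431). The second probe set was the 1 of 21 with an unadjusted p under 0.05. Groups that do not overlap were found in 2 of 21 member probe sets and in 1 of 10 genes, against 13.5% of all probe sets and 14.4% of all genes. Counting only groups with KO wholly below WT, the shares of the whole table were 6.51% of probe sets and 7.56% of genes, so the members' counts are near the background.

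Thioredoxin reductase 1, Txnrd1, keeps thioredoxin reduced in the cytosol. Txnrd1 measured 6.82, 6.79 and 6.73 in KO and 6.79, 6.62 and 6.75 in WT. It was the steadiest of the 10 genes, with a full range of 0.20 over the 6 arrays. The difference was 0.06 with an interval of -0.14 to 0.26, so that the KO level lay between 0.91 and 1.20 times that of WT. Srxn1, sulfiredoxin, repairs overoxidised peroxiredoxins. Its brightest probe set measured 4.41, 4.72 and 4.78 in KO and 4.82, 4.56 and 4.60 in WT, with the lowest value in KO and the highest in WT but the others mixed. Of its 4 probe sets 2 were higher and 2 lower in KO, with differences from -0.16 to 0.06. The name of the brightest Srxn1 probe set also marks possible binding of other transcripts.

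The classical NRF2 targets Nqo1, a quinone reductase, and Hmox1, the inducible enzyme of haem breakdown, had values near the array medians. Nqo1 measured 2.98, 3.19 and 3.01 in KO and 2.51, 3.02 and 2.91 in WT, with WT replicate 1 below all other arrays. Its difference was 0.24 with an interval of -0.06 to 0.55 (adjusted p = 0.661 by limma), and without WT replicate 1 it was 0.094. Hmox1 measured 3.01, 3.07 and 3.44 in KO and 3.12, 3.07 and 3.12 in WT. KO replicate 3 was above the rest, and the difference of 0.07 had an interval of -0.20 to 0.34. No detection call was used here, so a small difference in either gene could be hidden at these levels.

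**Figure D2:**
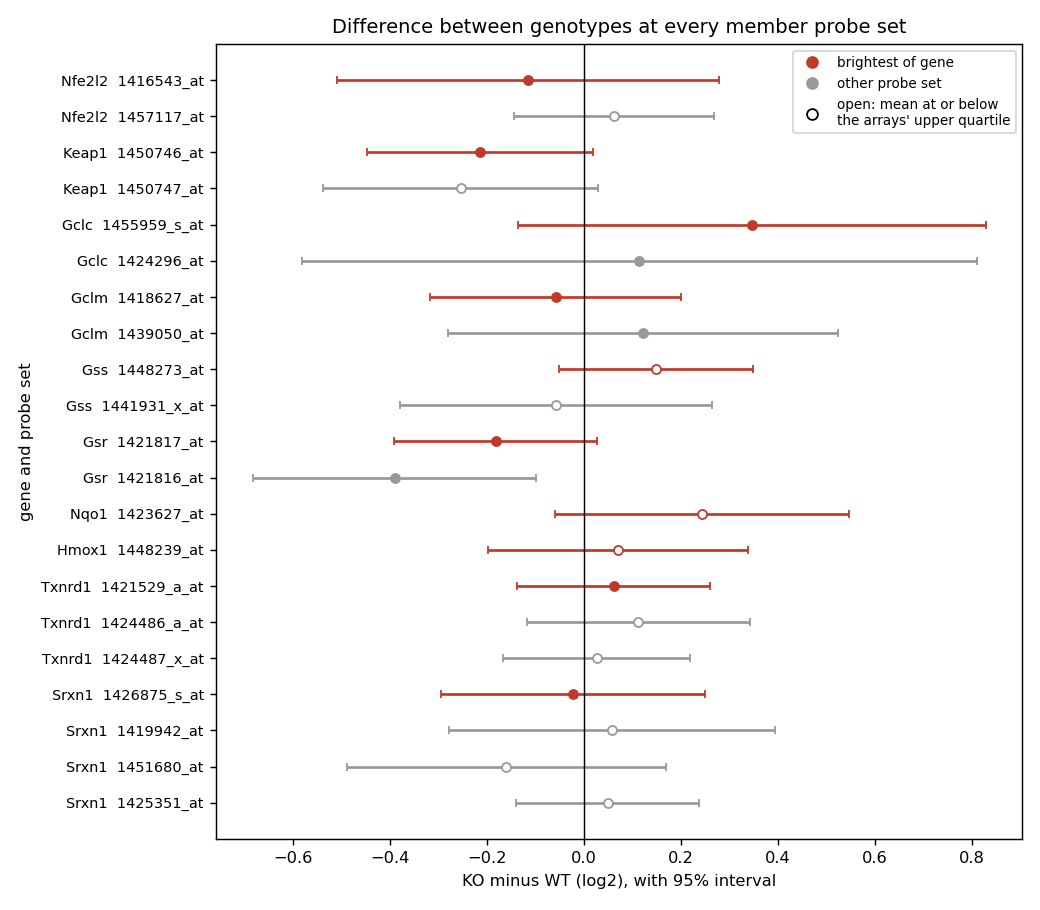
KO minus WT difference (log2) with its 95% interval for each of the 21 probe sets; red marks the brightest probe set of a gene, grey the others, and open points have a mean at or below the upper quartile of the arrays. The interval of 1 probe set, that of the second Gsr probe set at -0.68 to -0.10, does not include 0.

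Probe sets of 1 gene did not always point the same way. Of the 8 genes with several probe sets, 4 had all of them on one side, namely Keap1 and Gsr lower and Gclc and Txnrd1 higher in KO. In Nfe2l2, Gclm, Gss and Srxn1 the probe sets differed in sign, and in each of these 4 genes all their intervals included 0. Of the 21 probe sets, 10 had a mean above the upper quartile of the arrays and 11 did not.

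KO replicate 1 weighed most on 2 of the genes. Without it the Gclc difference was 0.057, against 0.35 with all arrays, and the second Gclc probe set measured -0.33, against 0.12. The Nfe2l2 difference without it was -0.34, against -0.11, and that without KO replicate 2 was 0.048. KO replicate 1 also carried the lowest Adipoq value, 2.26, against 5.73 and 5.65 in the other KO arrays and 5.12, 6.99 and 6.06 in WT. Adipoq marks fat cells. The summed level of the 4 measured fat markers of 6 listed was 5.70 to 7.11 in KO and 6.42 to 7.92 in WT (log2), lowest in KO replicate 1. The summed level of the 9 macrophage markers was 8.21 to 9.07 in KO and 8.77 to 9.04 in WT, and KO replicate 1 was again lowest. That sum rests mainly on Lyz2 and Csf1r: KO replicate 1 was the lowest array in 3 of the 9 macrophage markers. The part of either cell type in the Gclc and Nfe2l2 values was not tested. Xist, which marks female tissue in mice, was high in KO replicates 2 and 3 and in WT replicate 3, at 9.09 to 9.79, and at 4.43 or less in the other arrays. With the Xist level as a covariate the Gclc difference was 0.56 (adjusted p = 0.455 by limma) and that of Nfe2l2 was 0.055; this covariate was chosen after seeing the data.

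**Figure D3:**
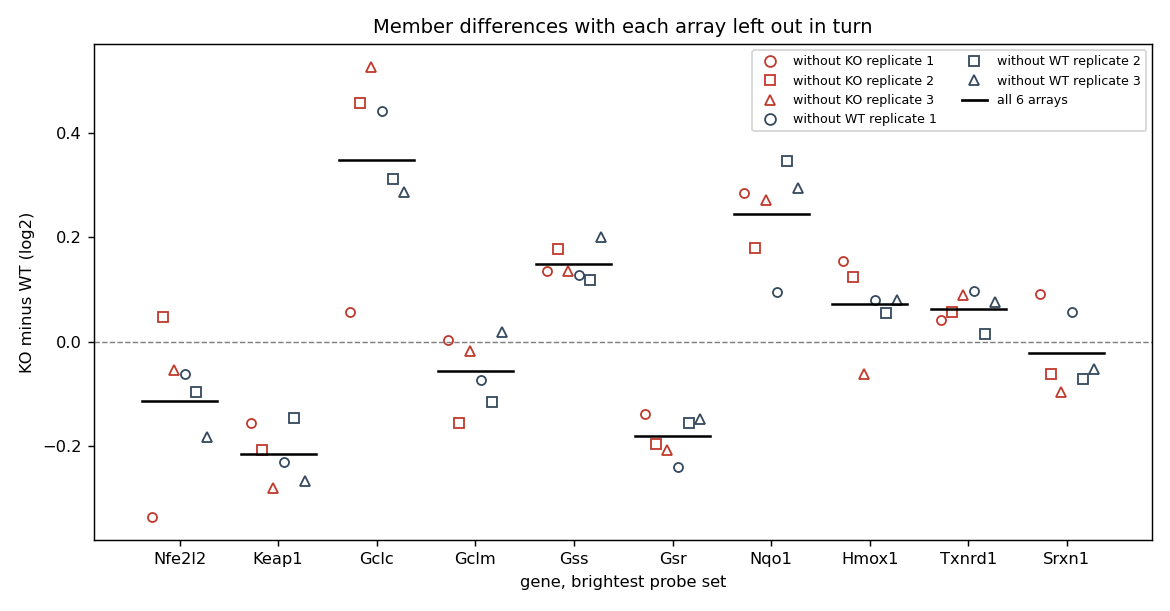
KO minus WT difference (log2) of each gene at its brightest probe set, with all 6 arrays (black line) and with each array left out in turn (symbols). Keap1 and Gsr stay below 0 and Gclc, Gss, Nqo1 and Txnrd1 above 0 in every case drawn, while Gclc measures 0.057 without KO replicate 1.

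The wider pathway was read from 8 further lists, which held 107 measured genes of 116 entries. By limma 0 of the 107 had an adjusted p under 0.05, against 0.132% of all genes, and 13 had an unadjusted p under 0.05, 10 lower and 3 higher in KO. These are 12.1% of the listed genes, against 10.1% of all genes, which divide into 5.58% lower and 4.55% higher. In all, 67 of the 107 measured lower in KO and 40 higher, and their median difference was -0.06. Of all genes, 50.2% measured lower.

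**Figure D4:**
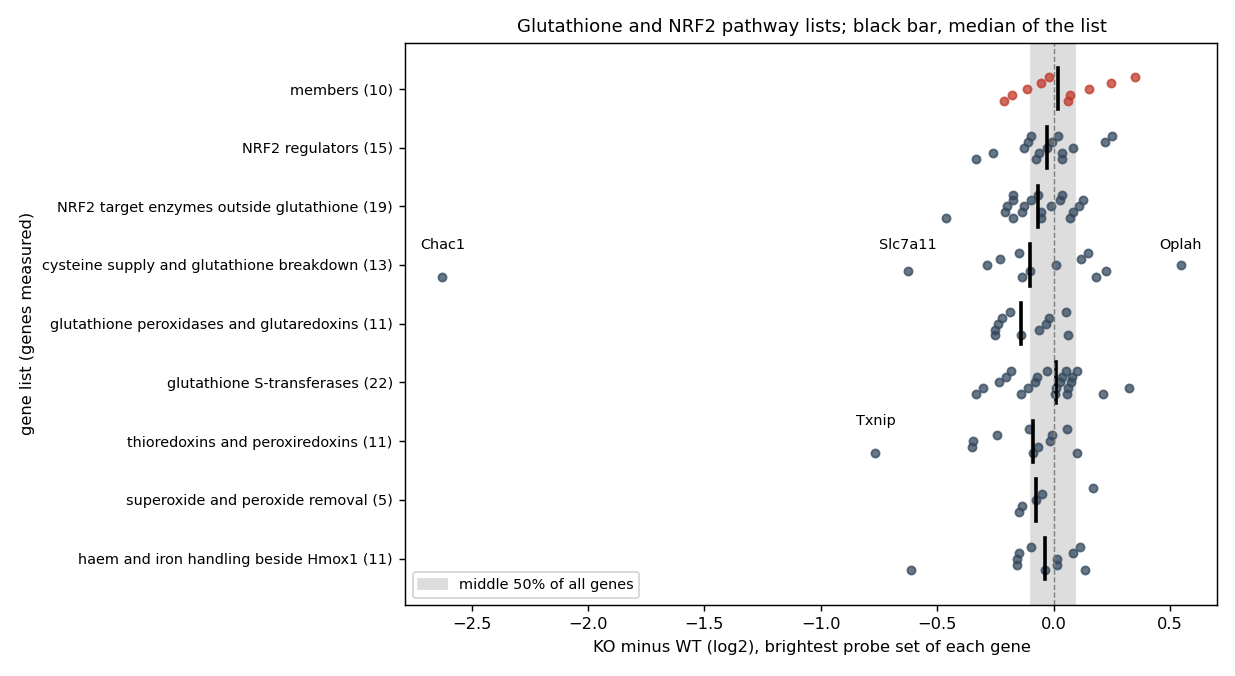
KO minus WT difference (log2) at the brightest probe set of each gene, by list, with the number of genes measured; black bars are list medians and the grey band holds the middle 50% of all genes. The 10 members (red) lie between -0.21 and 0.35, while Chac1 stands apart at -2.63.

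Supply of cysteine and breakdown of glutathione was the list with the widest differences, 6 genes higher and 7 lower in KO of 13 measured. Its median was -0.10 with all arrays and -0.13 to 0.025 with an array left out, so its sign is not settled. Chac1, which cleaves glutathione in the cytosol, measured 6.59, 8.34 and 8.54 in KO and 10.78, 10.84 and 9.74 in WT. All KO values were more than 1 log2 unit below all WT values, but both groups varied widely. The difference of -2.63 had an interval of -3.68 to -1.57 (unadjusted p = 0.000282, adjusted p = 0.142 by limma). Slc7a11, the cystine importer that supplies cysteine for glutathione synthesis and a target of both NRF2 and ATF4, measured 4.64, 4.47 and 4.87 in KO and 5.11, 5.30 and 5.44 in WT. Its groups did not overlap either, and the difference was -0.63 with an interval of -0.91 to -0.34 (unadjusted p = 0.000699, adjusted p = 0.194 by limma). A second Slc7a11 probe set near the array medians differed by 0.02. Oplah, the 5-oxoprolinase that returns glutamate from glutathione breakdown, measured 3.88, 3.23 and 4.07 in KO and 3.28, 3.20 and 3.08 in WT. KO replicate 2 lay within the WT range, and the difference was 0.54 with an adjusted p of 0.445 by limma.

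Among 15 regulators of NRF2, 6 measured higher and 9 lower in KO, with a median of -0.03. Nfe2l1, a relative of NRF2 that governs proteasome genes, measured 5.92, 5.93 and 6.15 in KO and 6.40, 6.45 and 6.16 in WT. The groups were apart by the narrowest margin, with a difference of -0.33 (interval -0.59 to -0.08, adjusted p = 0.43 by limma). Mafk, a small Maf partner of NRF2, measured 6.07, 6.07 and 5.89 in KO and 5.80, 5.77 and 5.71 in WT, a difference of 0.25 (interval 0.05 to 0.45, adjusted p = 0.479). Bach1, a repressor at the same elements, differed by 0.04, and Sqstm1 (p62), which draws Keap1 into autophagy, by 0.02. Btrc, an F-box protein of a second degradation route of NRF2, differed by 0.22, at a level below the upper quartile. Its other probe sets, all dimmer, differed by 0.034 to 0.039, and the mean of its probe sets by 0.074.

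Most genes in the lists of peroxide and thiol reduction, which include partners of the enzymes, measured lower in KO, none past the threshold. Of the 11 genes measured in the list of thioredoxins, peroxiredoxins and their partners, 9 were lower, with a median of -0.09, and 4 had an unadjusted p under 0.05, all lower. Over all genes, 50.2% measured lower and 5.58% were lower at an unadjusted p under 0.05. The 4 were Txnip, Sesn1, Sesn2 and Prdx3. The rest of the list differed by -0.11 for Txnrd2 to 0.10 for Sesn3, with the bright Txn1 and Prdx4 at -0.01 and -0.02. Prdx1, Prdx5 and Prdx6 are on the list but were not analysed here. Txnip, which binds and inhibits thioredoxin, measured 7.92, 8.91 and 8.43 in KO and 9.42, 9.02 and 9.11 in WT. The highest KO value was just under the lowest WT value, and the difference was -0.77 (interval -1.25 to -0.28, adjusted p = 0.357 by limma). Sesn2, a stress-induced sestrin, measured 4.84, 4.87 and 5.04 in KO and 5.35, 5.32 and 5.14 in WT, and its 2 probe sets differed by -0.35 and -0.34. Prdx3, the mitochondrial peroxiredoxin, measured 7.85 ± 0.02 in KO and 8.09 ± 0.06 in WT (SD, n = 3 each), with tight groups that did not overlap (adjusted p = 0.449 by limma).

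Glutathione peroxidases and glutaredoxins had 9 of 11 genes lower, with a median of -0.14, and Glrx, a cytosolic glutaredoxin, was the 1 gene with an unadjusted p under 0.05, at -0.25 and a level below the upper quartile. Glrx5, a mitochondrial glutaredoxin of iron-sulfur cluster assembly, differed by -0.25, Gpx6, near the array medians, by -0.24, and Gpx1, the abundant cytosolic peroxidase, by -0.02. Superoxide and peroxide removal had 4 of 5 genes lower. Sod1 differed by -0.14, Sod2 by -0.07 and Sod3, dim on all arrays, by -0.15, while catalase (Cat) differed by 0.17 and was highest in WT replicate 3 at 7.71, so that its groups overlapped. The Cat difference at this probe set ran from 0.014 to 0.40 with an array left out. A second Cat probe set, also above the upper quartile, differed by 0.49 with an interval of -0.09 to 1.08, and its groups overlapped too.

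**Figure D5:**
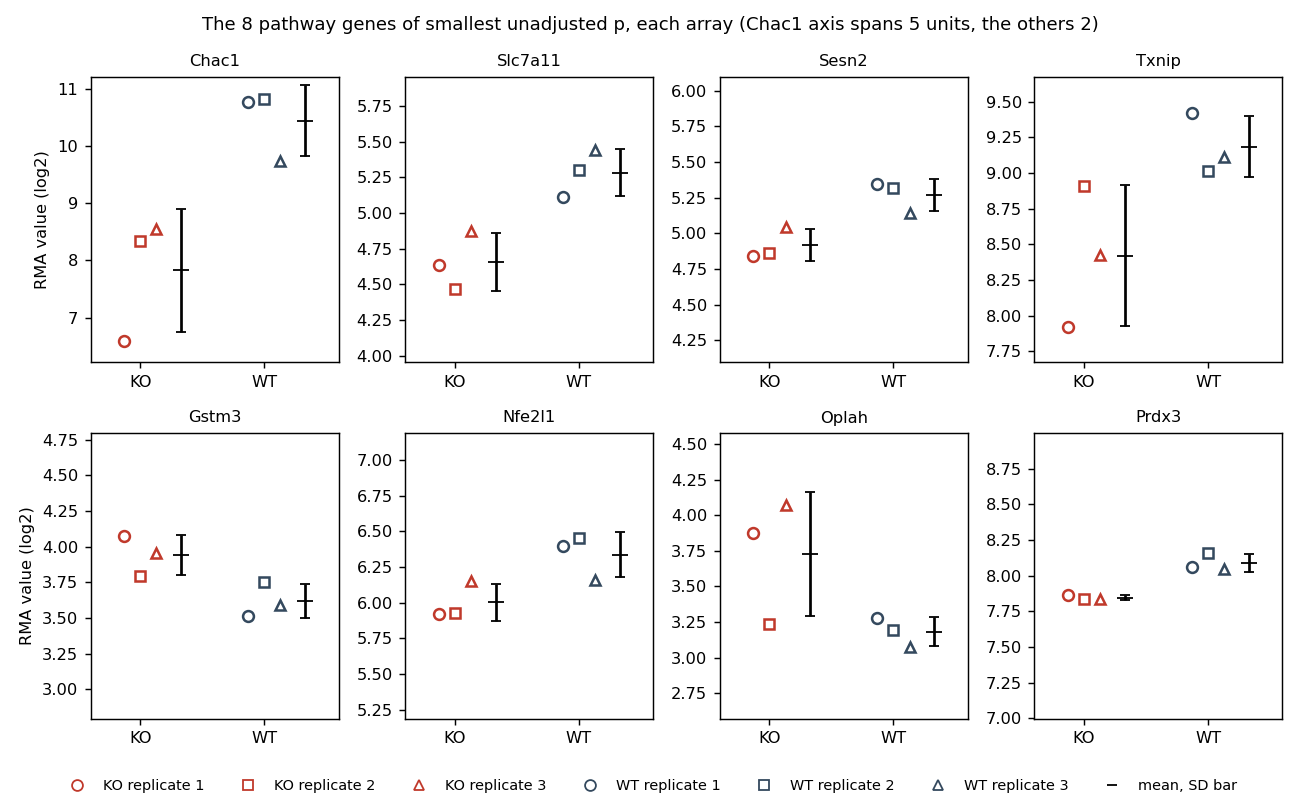
Log2 RMA values of the 8 genes with the smallest unadjusted p among the pathway lists, with KO left of WT; symbols are single arrays and black bars are means with the SD of 3 arrays. The groups do not overlap except in Oplah, and Chac1, drawn on a wider axis, measures 6.59 to 8.54 in KO and 9.74 to 10.84 in WT. Picking genes by their p favours groups that are apart. Of all 107 pathway genes, 13 had KO wholly below WT and 3 wholly above, against 14.4% of all genes with either. Oplah and Gstm3 lie below the upper quartile of the arrays.

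Glutathione S-transferases, which join glutathione to electrophiles, were split, with 12 of 22 higher and 10 lower in KO and a median of 0.01. Gstm3 differed by 0.32 at a probe set below the upper quartile whose name marks possible binding of other transcripts, which related genes of this family could supply, and its other probe set differed by -0.05. Gstz1 differed by -0.30 and Gstk1 by -0.24, and neither passed (adjusted p = 0.456 and 0.557 by limma). Other NRF2 target enzymes had 13 of 19 genes lower with a median of -0.07 and 0 at an unadjusted p under 0.05. Ephx1, an epoxide hydrolase, differed by -0.18, Nqo2 by -0.21 and Osgin1 by -0.18. Without KO replicate 2 the Nqo2 difference was -0.080. Of 11 genes of haem and iron handling, 5 were higher and 6 lower. Hmox2, the constitutive haem oxygenase, measured 6.67 ± 0.03 in KO and 6.83 ± 0.01 in WT (SD, n = 3 each), a difference of -0.16 with an adjusted p of 0.634 by limma. Tfrc, the transferrin receptor, differed by -0.61, with 6.02 in KO replicate 1. Without that array the Tfrc difference was -0.24, without KO replicate 3 it was -0.97, and a second Tfrc probe set differed by 0.15. Hpx, at a level below the array medians, differed by -0.16.

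Markers of other cells in the tissue were read beside these lists. Stellate and fibroblast markers measured lower in KO in 6 of 6 genes, 0 of them past the limma threshold and 3 at an unadjusted p under 0.05, against 50.2% of all genes lower and 5.58% lower at that p. The 3 were the collagens Col1a1, Col1a2 and Col3a1. Pdgfrb, Dcn and Lum differed by -0.02, -0.19 and -0.32, with groups that overlapped. The median of the list was -0.38, and its summed level was 11.50 to 12.00 in KO and 12.03 to 12.42 in WT (log2). Acinar markers summed to 16.94 to 16.95 in KO and 16.96 in WT, a level where RMA values are compressed, and islet markers to 13.40 to 13.57 in KO and 13.56 to 13.68 in WT. Liver markers summed to 9.94 to 10.53 in KO and 10.94 to 11.08 in WT, and this sum is nearly all Ttr, singled out after its values were seen, at 10.48, 9.87 and 10.23 in KO and 11.03, 11.01 and 10.90 in WT. Islet cells also express Ttr. The other 4 liver markers lay at or below the upper quartile, and 3 of them, Alb, Fgb and Cyp2e1, measured higher in KO. The summed level of the 3 red blood cell markers measured, of 5 listed, was 4.83 to 4.94 in KO and 4.84 to 4.94 in WT, and all 3 were below the upper quartile. The part of these cells in the differences of the members and of the wider pathway was not tested.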

How the data were processed

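Whole-pancreas RNA of 3 KO and 3 WT mice was read on Affymetrix arrays, and samples were grouped by the genotype in their titles. The deposited values are log2 intensities, which the authors obtained by RMA through the package affy, per the submitters' processing notes. Its version and settings are unstated in the labels. RMA hides a change shared by most genes and compresses very bright probe sets. The number of arrays limits the precision, and raw scans were not analysed here.

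Of 45101 probe sets, 64 controls were left out. Gene names came from the platform annotation, 34958 probe sets with 1 symbol, 932 with several and 9211 with none, updated by Entrez identifier for 34754. KO minus WT was tested with limma 3.58.1 in R 4.3.3 over all 45037 probe sets, two-sided, without covariates, with Benjamini-Hochberg adjustment, a threshold of 0.05 and 95% intervals. A gene was represented by its brightest single-symbol probe set. On simulated data with normal noise, the fit recovered 91% of changes of 1 and 100% of changes of 2 log2 units, planted in probe sets drawn at random. Changes of the members' size, -0.21 to 0.35 at the brightest probe sets, were not simulated. These rates do not carry over to every gene: Chac1 differed by -2.63 with widely varying groups and was not called.

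The members and lists were chosen with earlier results of these data known. Named beside the members and Pebp1 are the 3 genes of smallest p of each pathway list, 8 genes fixed by name and, for the 2 members of smallest p, the 3 genes that correlate best with each. Txnrd2, Sesn3, Txn1 and Prdx4, the cell markers and Xist are named outside this rule. Of the 116 list entries, 9 were not analysed here. Alternatives were normalization, filters, variance model, array weights, replicate block, left-out arrays, probe set choice, the threshold and, added after seeing the data, the Xist level. Figures were drawn with matplotlib 3.10.9.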

Additional observations from a re-analysis of the deposited data

How the results depend on the processing

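In all 17 alternatives, limma called 0 of the members, 0 of their probe sets and 0 of the pathway genes, and the lowest adjusted p of a member was 0.335, for Gsr as the mean of its probe sets. Pebp1 kept its call, with a difference of -4.08 to -3.68 over the left-out arrays. The replicate block left these counts at 0, with Gclc at 0.35. The labels do not say whether equal numbers pair the mice. Deviations of same-numbered arrays correlated at -0.08 to 0.19 and those of differently numbered arrays at -0.16 to 0.18. With 3 arrays per group these values cannot decide the matter, so the replicate block fit is given for completeness. Members with small differences turned in sign. Nfe2l2 measured 0.055 with the Xist covariate, chosen after seeing the data, and -0.34 to 0.048 over the left-out arrays. Gclm measured 0.013 after a second quantile normalization, 0.033 as the mean of its probe sets and -0.16 to 0.018 over the left-out arrays. Srxn1 measured 0.059 with suffixed probe sets left out and -0.10 to 0.091 over the left-out arrays, and Hmox1 -0.062 to 0.15. Among second probe sets, the left-out arrays gave -0.33 to 0.43 for Gclc, -0.11 to 0.25 for Gclm, -0.23 to 0.031 for Gss and -0.031 to 0.20 for Srxn1, and Gss measured 0.054 with the Xist covariate. The third and dimmest Txnrd1 probe set gave -0.0095 to 0.059. Of the other genes, Sqstm1 measured -0.00252 with equal array medians and -0.060 to 0.13 over the left-out arrays, Gpx1 0.0048 after a second quantile normalization and -0.076 to 0.031, Bach1 -0.048 and Sod3 0.0079 as means of their probe sets, and Gstm3 -0.053 with suffixed probe sets left out. The cause of these turns was not tested. List medians crossed 0 over the left-out arrays for NRF2 regulators (-0.076 to 0.035), cysteine supply and glutathione breakdown (-0.13 to 0.025), glutathione S-transferases (-0.11 to 0.029) and haem and iron (-0.11 to 0.043). At an unadjusted p under 0.05, 2 members were found as means of probe sets (Keap1, Gsr) and 2 without KO replicate 3 (Keap1, Gclc). Gclc was found under the replicate block and with the Xist covariate, Nfe2l2 without KO replicate 1, Gsr without WT replicate 1, Nqo1 without WT replicate 2 and Keap1 without WT replicate 3. Over the left-out arrays Nqo1 ran from 0.094 to 0.35, Tfrc from -0.97 to -0.24, Ephx1 from -0.27 to -0.11, Nqo2 from -0.34 to -0.080, Osgin1 from -0.25 to -0.089, Glrx from -0.32 to -0.16 and Hpx from -0.22 to -0.068. Tfrc was -0.17 as the mean of its probe sets. Slc7a11 measured -0.30 as the mean of its probe sets, and Chac1 -2.98 to -2.01 over the left-out arrays, with an adjusted p of 0.086 to 0.51 over all alternatives. Nqo1, Hmox1 and Gss lie near or below the upper quartile of the arrays, which limits what can be seen of them.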

Other observations

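The genes whose values ran most closely with the members of lowest p were looked up among 7153 genes brighter than the upper quartile of all values. For Keap1 these were Pxdn, Col14a1 and Sparc, with Pearson's r of 0.994, 0.992 and 0.992 over the 6 arrays. Their own differences between KO and WT were -0.36, -0.64 and -0.31 (log2), and their limma adjusted p ran from 0.373 to 0.586. For Gsr they were Ids, Sesn1 and Mef2d, with r of 0.995, 0.987 and 0.983. Of the genes searched, 63 reached an r of 0.95 with Keap1 and 43 with Gsr. The arrays share their normalization and fall into the genotypes, so these are descriptions and carry no test.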
